A study of Mus musculus with 7 samples.

Results

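The AP-1, Egr and Nr4a immediate-early factors are 10 transcription factor genes, Fos, Fosb, Fosl2, Jun, Junb, Jund, Batf, Egr1, Nr4a1 and Nr4a2. They were read by gene name from the count table of each library, and all 10 of the 25033 genes listed there were found and passed the filter for low counts. The set was selected on the read counts of these libraries, because Junb had one of the highest counts in ORP4L KI T-cells, so the ORP4L KI against WT values of the members are given as a description without a test. The libraries are whole transcriptome RNA from T-cells of C57BL/6J mice labelled as 15 months old, 3 wild-type (WT) and 4 of their ORP4L KI littermates, 1 library each. ORP4L, an oxysterol-binding protein, is the product of the mouse gene Osbp2. The ORP4L KI mice carried human ORP4L with an EGFP reporter in the Rosa26 locus behind a CAG promoter and a floxed stop, which was removed by a Cre under the Lck promoter, active in T-lineage cells. They were sampled when moribund, so genotype and illness cannot be told apart. T-cells were taken from blood or from collagenase-digested spleen with a selection kit for naive CD4+ T-cells. The methods place isolated T-cells in culture with IL-2 and PHA, a mitogen that activates T-cells. Which source each library had, and whether its RNA was taken before or after this culture, is not given in the sources used here. In bulk libraries of this kind, fewer cells of a type and less RNA per cell cannot be told apart.

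Immediate-early genes are transcribed within minutes of a signal from preexisting factors, without the need for new protein, and their mRNAs decay fast. Fos and Jun proteins pair through leucine zippers to form AP-1, which in T-cells acts with NFAT on cytokine genes after stimulation of the T-cell receptor. Fos proteins bind DNA only as partners of Jun proteins, whereas Jun proteins can also pair with each other, and Batf pairs with Jun proteins to act with Irf4. Egr1 is a zinc-finger factor downstream of the ERK kinases, and Nr4a1 (Nur77) and Nr4a2 (Nurr1) are orphan nuclear receptors induced by antigen receptor signals. The same genes also respond to mitogens such as PHA and to handling of cells, such as tissue digestion.

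The libraries held between 12918187 and 15912921 counts in WT and between 16757959 and 19665679 in ORP4L KI. Osbp2 had 0, 0 and 1 counts in WT and 188, 742, 155 and 443 in ORP4L KI, so reads assigned to Osbp2 followed the labels. The knock-in is a human sequence in Rosa26, so these counts are of reads that mapped to the mouse gene, and transgene and mouse transcripts cannot be told apart in them. In ORP4L KI replicate 1 the 10 most abundant genes took 14.3% of all counts, compared with 5.23% to 7.96% in the other libraries. The summed level of 15 granulocyte markers, S100a8 and S100a9 among them, was 2394 to 5483 CPM (reads scaled to a library of fixed size, here after TMM scaling) in WT. It was 142800, 10220, 30540 and 52340 CPM in ORP4L KI replicates 1, 2, 3 and 4, and no marker was at 0 in any library. The 12 T-cell markers summed to 2338 to 3162 CPM in WT and 1624 to 4528 CPM in ORP4L KI, with the lowest sum in ORP4L KI replicate 1 and the highest in replicate 2. The summed erythroid markers were 9811 to 18530 CPM in WT and 1073 to 8549 CPM in ORP4L KI, and the dendritic-cell sum was also lower without overlap (499 to 770 CPM in WT, 152 to 269 CPM in ORP4L KI). The sums of monocyte, B-cell, NK-cell and platelet markers overlapped between the groups. Of 8 NK-cell markers, 4 were called lower by the unadjusted rule given below. In all ORP4L KI libraries 5 of the 8 lay below every WT library and 2 lay above. Of 10 monocyte markers 1 was called lower (Csf1r) and 1 higher (Ly6c2). Over all genes tested, 2.3% were called lower and 2.38% higher, while 7.38% lay below without overlap and 6.43% above. The defining T-cell genes Cd3d, Cd3e and Cd4 were detected in every library, as was Cd8a (79.6 to 226 CPM), which CD4+ selection should deplete.

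The members spanned a wide range of abundance. The Jun genes, Fos, Fosb and Nr4a1 ranked between 2 and 224 by read count in every library, whereas Batf ranked between 2342 and 5132. Compared per length as RPKM, Junb was the highest member in each of the 7 libraries, at 1898 to 2316 RPKM in WT and 1021 to 3053 RPKM in ORP4L KI. By read count, the measure that chose the set, it was the gene of rank 11, 11 and 10 in WT and of rank 46, 2, 5 and 6 in ORP4L KI. Below Junb in WT came Jun (835 to 941 RPKM), Nr4a1 (756 to 895 RPKM), Jund (625 to 869.8 RPKM) and Fos (601 to 759 RPKM), whose ranges overlapped from neighbour to neighbour. Fosb (307 to 409 RPKM) lay below these and above Egr1 (137 to 154 RPKM) without overlap. Egr1, Fosl2 (90.9 to 164 RPKM), Nr4a2 (78.0 to 133.0 RPKM) and Batf (40.8 to 83.1 RPKM) each overlapped with the next in WT. In ORP4L KI even the ranges of Junb and Jun overlapped, since Junb of replicate 1 lay below Jun of replicates 3 and 4.

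The 10 genes together took 1.58%, 1.53% and 1.49% of all counts in WT. In ORP4L KI they took 0.870%, 1.46%, 1.94% and 1.78% in replicates 1, 2, 3 and 4. The ORP4L KI libraries thus lay on both sides of a narrow WT range. ORP4L KI replicate 1 was above a gene's mean over the 7 libraries for 1 of the 10 members, and ORP4L KI replicates 3 and 4 were above it for 10 and 9 members. In WT this number was 4 or 5 in each library.

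**Figure D1:**
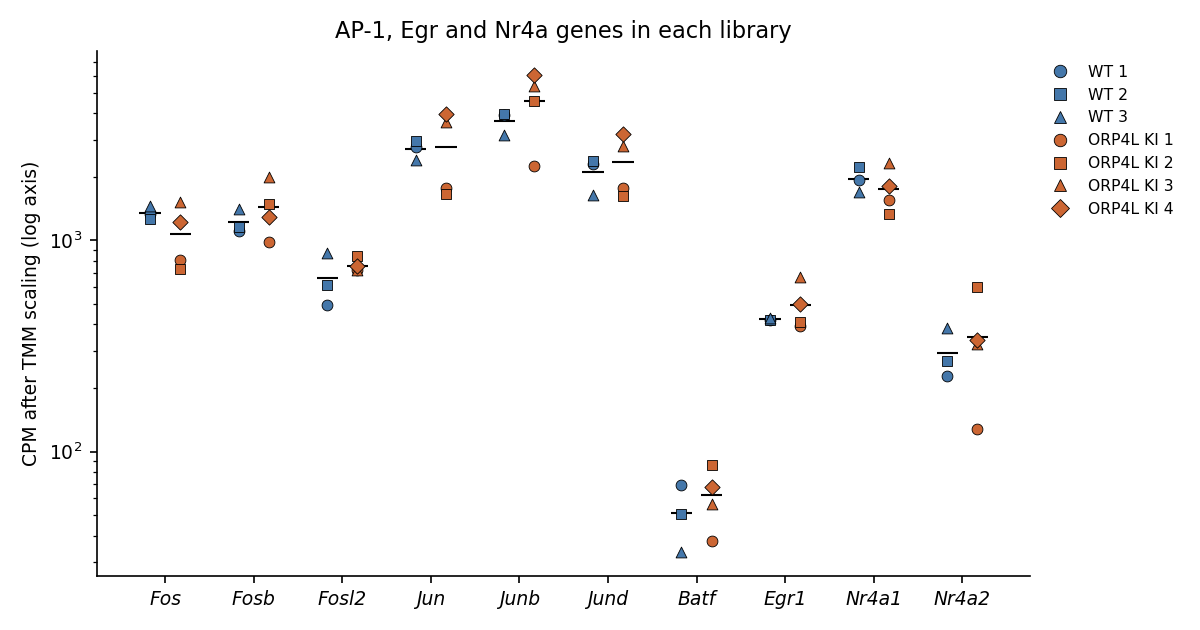
Level of the 10 genes in each of the 7 libraries, in CPM after TMM scaling on a log axis, with 1 point per library and colours for WT and ORP4L KI. Junb had the highest level among the members on this scale, which is not corrected for length, and for each gene the points of both groups overlapped.

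In no member were the groups separate. For 0 of the 10 did all 4 ORP4L KI libraries lie above every WT library, and for 0 did they all lie below, while 6.43% of the 13462 genes tested lay above and 7.38% below in this way. The unadjusted rule asks for a p under 0.01 in edgeR's quasi-likelihood test together with a log2 fold change over 1 in size. It called 0 of the 10, beside 2.38% of all genes called higher and 2.3% called lower in ORP4L KI. At a Benjamini-Hochberg adjusted p under 0.05 it also called 0, beside 0.0223% of all genes. The number with an unadjusted p under 0.05 was 0 by edgeR, beside 13.7% of all genes. DESeq2's Wald test called 0 by either rule, beside 6.35% of all genes by the unadjusted and 5.82% by the adjusted one. With total counts in place of TMM the calls over all genes went from 50.8% higher to 40.3% higher. Nothing about the members is read from these counts, because the same comparison chose them. The log2 differences of the members ranged from -0.34 to 0.31 with a median of 0.21, beside a median of 0.01 over all genes.

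Fos, the founding member of its family, was lower in 3 of 4 ORP4L KI libraries than in any WT library. It measured 1341, 1270 and 1453 CPM in WT replicates 1 to 3 and 805, 736, 1516 and 1225 CPM in ORP4L KI replicates 1 to 4. ORP4L KI replicates 1 and 2 were the low ones, and replicate 3 was above all WT libraries. Between the group levels the log2 difference was -0.34 (SE 0.29, 95% interval -0.98 to 0.30), and it lay between -0.56 and -0.21 when any 1 library was left out.

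Fosb, a close relative of Fos with a similar transactivation domain in its full-length form, measured 1111, 1161 and 1404 CPM in WT and 985, 1485, 2003 and 1296 CPM in ORP4L KI. ORP4L KI replicate 3 was the highest and replicate 1 the lowest library. For Fosb the log2 difference was 0.24 (SE 0.27, 95% interval -0.38 to 0.85). Without ORP4L KI replicate 3 it was 0.03.

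Fosl2 (Fra-2) lacks the strong transactivation domain of Fos. Its levels were 493, 614 and 876 CPM in WT and 723, 841, 721 and 758 CPM in ORP4L KI, so all 4 ORP4L KI libraries lay within the WT range. The log2 difference was 0.20 (SE 0.24, 95% interval -0.33 to 0.74), with a value of 0.46 without WT replicate 3 and 0.03 without WT replicate 1.

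Within the Fos family, Fos took a smaller part of the transcripts in each ORP4L KI library than in any WT library. Of the summed RPKM of Fos, Fosb and Fosl2, Fos made up 62.7%, 59.4% and 56.9% in WT and 49.8%, 39.4%, 52.4% and 55.1% in ORP4L KI. The part of Fosb was 29.0% to 30.7% in WT and 32.6% to 44.4% in ORP4L KI, also without overlap. That of Fosl2 was 8.29% to 12.3% in WT and 8.97% to 16.2% in ORP4L KI. As parts of the same sum, the shares of Fos and Fosb depend on each other and are not separate results. Fosl1, a further Fos relative, is not in the sum. These shares were computed after the values had been seen, and they are given without a test.

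**Figure D2:**
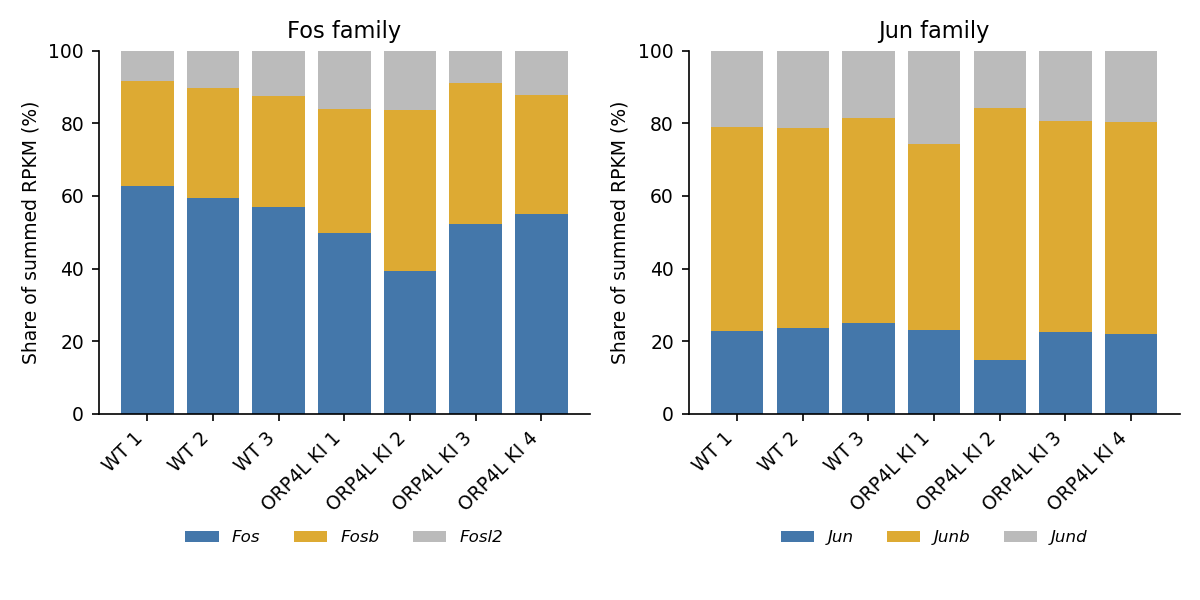
Share of each gene in the summed RPKM of the Fos and Jun families, in percent, as stacked bars with 1 bar per library. The Fos share was 56.9% to 62.7% in WT and 39.4% to 55.1% in ORP4L KI, and ORP4L KI replicate 2 stood out with a Junb share of 69.5%.

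Junb can restrain the activity of Jun and is required for effector functions of several helper T-cell subsets. It measured 3942, 3968 and 3172 CPM in WT and 2253, 4563, 5394 and 6108 CPM in ORP4L KI. ORP4L KI replicates 2, 3 and 4 were above every WT library and replicate 1 was below every one. For Junb the log2 difference was 0.31 (SE 0.34, 95% interval -0.46 to 1.08). Without ORP4L KI replicate 1, the library with the highest granulocyte sum and the lowest T-cell sum, it was 0.53 (SE 0.22), and without ORP4L KI replicate 4 it was 0.14. In CPM the T-cell sum had the same arrangement as Junb, with ORP4L KI replicates 2, 3 and 4 above every WT library (3213 to 4528 CPM, beside up to 3162 CPM in WT) and replicate 1 below. As a part of all counts, T-cell markers were 0.2336% to 0.3485% in WT. In ORP4L KI replicates 1 to 4 they were 0.1357%, 0.4933%, 0.3201% and 0.3178%, so replicates 3 and 4 lay within the WT range. On that scale Junb was 0.3496% to 0.4267% in WT and 0.1882%, 0.4971%, 0.5374% and 0.5624% in ORP4L KI. The part of these markers in the result was not tested.

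Jun is the main activating partner of Fos and is switched on by phosphorylation through the JNK kinases. Its levels were 2773, 2961 and 2418 CPM in WT, and 1768, 1669, 3641 and 3982 CPM in ORP4L KI. The ORP4L KI libraries fell on both sides of WT, with replicates 1 and 2 below and replicates 3 and 4 above every WT library. The log2 difference of 0.03 (SE 0.35, 95% interval -0.77 to 0.82) therefore averaged libraries that lay apart. It became -0.12 with total counts and -0.03 with upper-quartile scaling, and lay between -0.21 without ORP4L KI replicate 4 and 0.19 without ORP4L KI replicate 1 or 2.

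Jund is the Jun gene that depends least on acute stimuli. It measured 2315, 2391 and 1634 CPM in WT and 1772, 1627, 2807 and 3208 CPM in ORP4L KI, with replicates 3 and 4 again above every WT library. The log2 difference was 0.16 (SE 0.31, 95% interval -0.54 to 0.85), and it turned to -0.03 without ORP4L KI replicate 4. Of the summed RPKM of the Jun genes, Junb made up 55.1% to 56.5% in WT and 51.1%, 69.5%, 58.1% and 58.4% in ORP4L KI. The RPKM of Junb was 3.37, 3.58 and 2.50 times that of Fos in WT and 3.21, 7.11, 4.08 and 5.72 times in ORP4L KI.

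Batf, which has no transactivation domain of its own, was the least abundant member by CPM. It measured 69.4, 50.6 and 33.5 CPM in WT and 37.6, 86.7, 56.7 and 68.3 CPM in ORP4L KI, and the groups overlapped almost wholly. The log2 difference was 0.28 (SE 0.32, 95% interval -0.44 to 1.01) and moved between 0.05 and 0.57 when any 1 library was left out.

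Egr1 was close to constant among the WT mice, at 420.1, 422 and 429 CPM. The ORP4L KI libraries measured 393, 410.0, 673 and 499 CPM, of which replicates 1 and 2 were below and replicates 3 and 4 above all WT libraries. The log2 difference was 0.22 (SE 0.24, 95% interval -0.31 to 0.75), and 0.03 without ORP4L KI replicate 3.

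Nr4a1, a marker of recent antigen receptor signalling, had levels of 1944, 2221 and 1700 CPM in WT and 1547, 1339, 2319 and 1814 CPM in ORP4L KI. Replicates 1 and 2 were again the low ORP4L KI libraries, and replicate 3 was the highest of all 7. For Nr4a1 the log2 difference was -0.16 (SE 0.25, 95% interval -0.73 to 0.41). Nr4a2 measured 229, 269 and 383 CPM in WT and 128, 601, 322 and 339 CPM in ORP4L KI. Here ORP4L KI replicate 2, a low library for Nr4a1, was the highest of all. The log2 difference of Nr4a2 was 0.24 (SE 0.44, 95% interval -0.74 to 1.23). It went from 0.51 without ORP4L KI replicate 1 to -0.18 without ORP4L KI replicate 2.

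**Figure D3:**
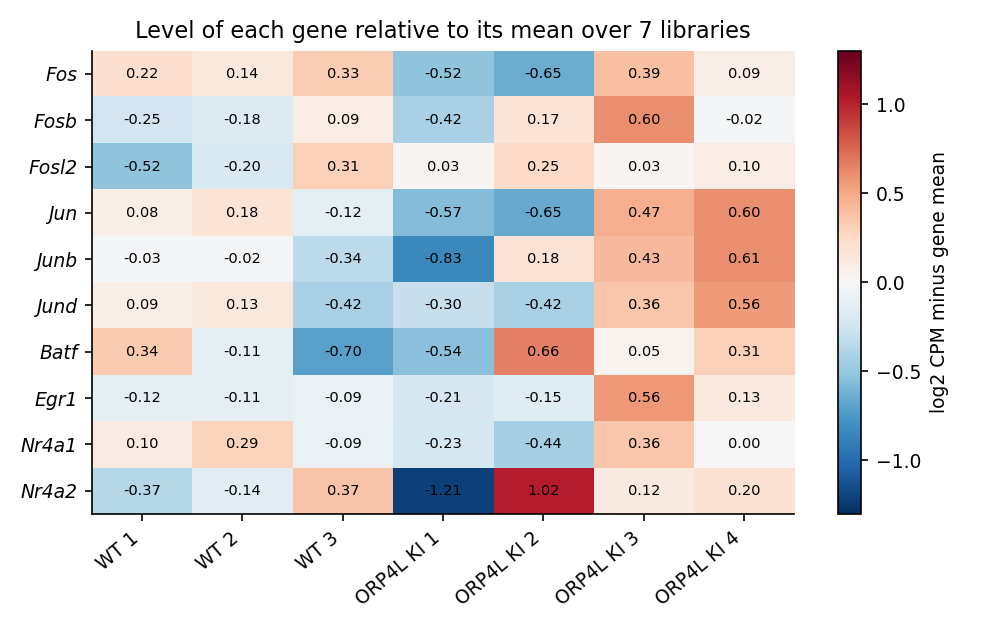
Heatmap of log2 CPM minus the mean of each gene over the 7 libraries, with genes in rows and libraries in columns. ORP4L KI replicate 1 was below the mean for 9 of the 10 members and ORP4L KI replicate 3 above it for all 10, whereas replicate 2 was low for Fos, Jun and Nr4a1 but high for Junb, Batf and Nr4a2.

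The 250 bases upstream of the start sites are shown for Fos and for Nr4a1, the member nearest to Fos in its profile over the 7 libraries. They are also shown for Junb and Nr4a2, which were farther from Fos. Within WT, Fos was highest in replicate 3 and Nr4a1 in replicate 2. Whether the sequences bear on the profiles was not tested. The sequences are from RefSeq on GRCm38.p6, the assembly that corresponds to the mm10 of the submitters' processing notes, and each ends at the base before the RefSeq start of the gene. They lie at chr12:85473640-85473889 (plus strand) for Fos, chr15:101266596-101266845 (plus strand) for Nr4a1, chr8:84978749-84978998 (minus strand) for Junb and chr2:57124004-57124253 (minus strand) for Nr4a2. In GENCODE M21 the windows of Fos, Junb and Nr4a2 overlap no gene, and that of Nr4a1 lies in an intron of a longer Nr4a1 transcript that starts further upstream. Capitals mark matches on either strand to TGACG, the core of a cAMP response element (CRE), to the TATA box letters TATAAA, to the promoter element CCAAT and to the Egr site GCGNGGGCG.
Fos: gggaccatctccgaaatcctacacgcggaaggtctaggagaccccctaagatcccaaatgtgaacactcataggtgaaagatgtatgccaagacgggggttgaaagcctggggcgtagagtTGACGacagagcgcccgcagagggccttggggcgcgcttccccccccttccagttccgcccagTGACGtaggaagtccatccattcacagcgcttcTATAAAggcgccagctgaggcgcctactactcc
Nr4a1: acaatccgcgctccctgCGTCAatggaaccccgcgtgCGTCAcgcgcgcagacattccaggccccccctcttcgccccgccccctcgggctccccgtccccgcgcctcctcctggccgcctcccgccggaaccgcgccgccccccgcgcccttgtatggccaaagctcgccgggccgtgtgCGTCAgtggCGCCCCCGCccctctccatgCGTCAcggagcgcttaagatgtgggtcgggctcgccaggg
Junb: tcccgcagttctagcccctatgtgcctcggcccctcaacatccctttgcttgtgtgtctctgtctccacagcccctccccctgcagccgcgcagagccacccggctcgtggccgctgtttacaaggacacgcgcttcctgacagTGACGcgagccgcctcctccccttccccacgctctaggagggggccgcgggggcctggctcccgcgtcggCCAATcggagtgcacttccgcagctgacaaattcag
Nr4a2: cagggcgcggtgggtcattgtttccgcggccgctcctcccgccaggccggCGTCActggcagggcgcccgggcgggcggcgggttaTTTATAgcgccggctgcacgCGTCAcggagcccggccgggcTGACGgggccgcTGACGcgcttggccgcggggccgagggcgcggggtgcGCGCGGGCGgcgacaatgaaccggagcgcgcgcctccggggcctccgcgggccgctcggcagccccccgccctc

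A TGACG core was found in 6 of the 9 member windows that RefSeq matched, compared with 17.8% of the 32851 mouse windows of the same length. It lay at -129 to -125 and -66 to -62 from the start in Fos, and at -106 to -102 in Junb. Nr4a1 and Nr4a2 held 4 such matches each. The full CRE TGACGTCA, which contains the core, was found in 0 of the 9 windows and in 1.55% of all. The Egr letters GCGNGGGCG were in 4 of the 9, those of Fosb, Fosl2, Nr4a1 and Nr4a2, and in 4.70% of all windows. The letters TATAAA were in 2 of 9, Fos and Nr4a2, and in 12.4% of all. They lay at -33 to -28 in forward orientation in Fos, but at -164 to -159 in reverse orientation in Nr4a2. The element CCAAT was in 2 of 9, Jun and Junb, and in 33.9% of all. The AP-1 site TGANTCA (6.75% of all windows), the CArG box (1.47%) and the Nr4a element AAAGGTCA (1.34%) were not found in the 9 windows. A match is a run of letters and does not show binding, and its absence concerns this window alone. Egr1 is the member without a window. The Jund window ends at chr8:70697738, upstream of the GENCODE M21 gene start at 70698949. That of Fosl2 begins at chr5:32136222, inside the gene, which starts at 32135801.

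The relatives of these factors outside the set were tested in the same fit over all genes. Of 14 relatives 13 passed the filter, 1 was called higher and 0 lower by the unadjusted rule, and 4 (30.8%) had an unadjusted p under 0.05, beside the 13.7% of all genes. The median log2 fold change was 0.01, the same as over all genes. Batf2, with 2 to 11 counts per library, was not tested.

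Fosl1 (Fra-1), the remaining Fos relative, was higher in every ORP4L KI library than in every WT library. It measured 7.02, 7.42 and 6.18 CPM in WT and 52.4, 14.9, 45.3 and 70.4 CPM in ORP4L KI. ORP4L KI replicate 2 was the closest to WT. The log2 fold change was 2.73 (SE 0.47), a 6.64-fold higher level, at an unadjusted edgeR p that passed the rule above and a Benjamini-Hochberg adjusted p of 0.0603 that did not pass 0.05. It lay between 2.44 and 3.01 when any 1 library was left out. Fosl1 remained a minor part of the family, at 3.99 to 4.45 RPKM in WT and 9.51 to 38.0 RPKM in ORP4L KI. Among ORP4L KI libraries replicate 2 was lowest both for Fosl1 and for the granulocyte sum (10220 CPM), but the highest Fosl1 level was in replicate 4 (52340 CPM of granulocyte markers) and not in replicate 1 (142800 CPM). Of the 15 granulocyte markers 13 were called higher, beside 2.38% of all genes, whereas Csf3r had a log2 fold change of -0.99 and was not called. The part of these markers in the Fosl1 difference was not tested.

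**Figure D4:**
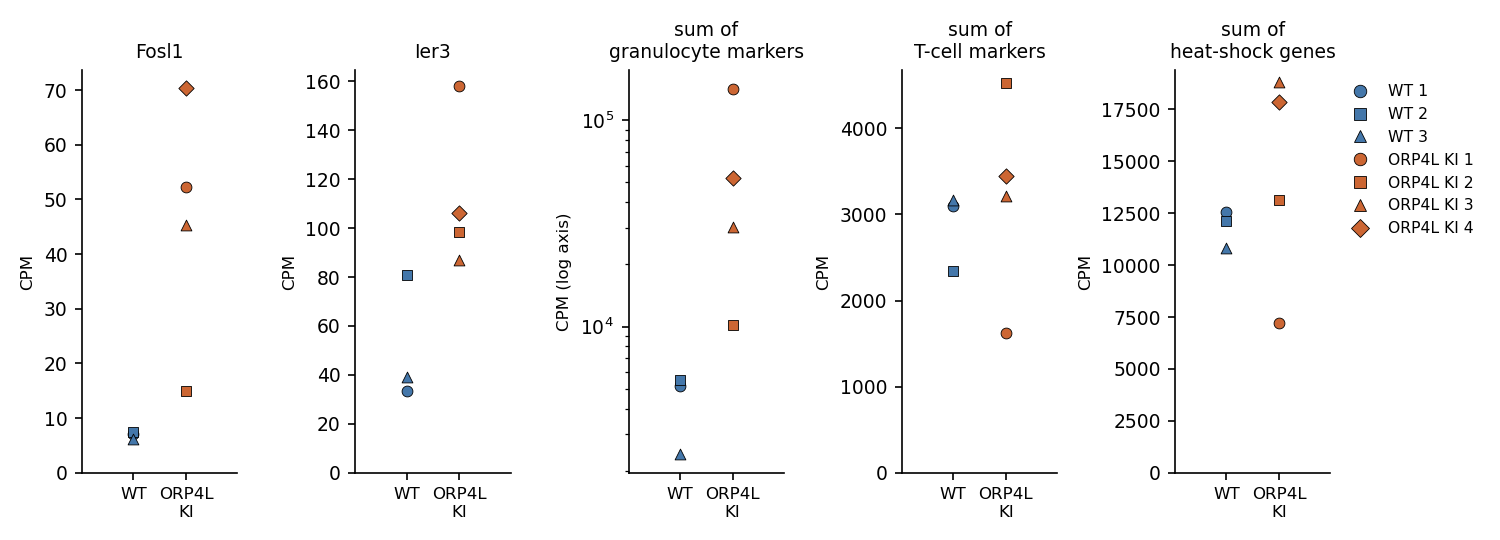
Levels of Fosl1 and Ier3 and the summed levels of granulocyte markers, T-cell markers and heat-shock genes in CPM (log axis for the granulocyte sum), with 1 point per library for WT and ORP4L KI. Fosl1 was 6.18 to 7.42 CPM in WT and 14.9 to 70.4 CPM in ORP4L KI, and the granulocyte sum also did not overlap between the groups, whereas the T-cell and heat-shock sums did.

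The small Maf genes, whose proteins have a leucine zipper without a transactivation domain, had positive differences. Mafg was 10.2 to 12.8 CPM in WT and 15.2 to 24.0 CPM in ORP4L KI without overlap, but its log2 fold change of 0.76 (SE 0.23) was under the size asked for and its adjusted p was 0.167 in edgeR's quasi-likelihood test. Maff had a log2 fold change of 0.68 (edgeR adjusted p = 0.307) and Mafk one of 0.51 (edgeR adjusted p = 0.446), and neither passed. Batf3, a partner of Jun proteins needed for a dendritic-cell lineage, measured 12.3, 15.2 and 5.69 CPM in WT and 6.33, 2.85, 6.09 and 5.10 CPM in ORP4L KI. Its log2 fold change of -1.12 did not pass (edgeR adjusted p = 0.228). It lay between -0.82 without WT replicate 2 and -1.43 without WT replicate 3, and passed the unadjusted rule in the latter case alone of the 7 libraries left out. Of the 8 dendritic-cell markers 7 were called lower, beside 2.3% of all genes, and the part of these markers in the Batf3 value was not tested.

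Atf3, a stress-induced repressor that can join Jun proteins, was 385, 554 and 378 CPM in WT and 267, 196, 427 and 320.1 CPM in ORP4L KI, with a log2 fold change of -0.54 that did not pass. The groups overlapped through ORP4L KI replicate 3, the library that was also high for Fos. Nr4a3, the third Nr4a receptor, had a log2 fold change of -0.33 (SE 0.38). Like Nr4a2 it was lowest in ORP4L KI replicate 1, at 215 CPM, but its highest library was WT replicate 3, at 822 CPM. The log2 fold changes of the other Egr genes were -0.10 for Egr2, -0.46 for Egr3 and 0.96 for Egr4, the last at 0.562 to 4.60 CPM. Those of the Egr corepressors were 0.35 for Nab1 and -0.41 for Nab2, and that of Jdp2, a repressor of AP-1, was 0.01, and none of these passed.

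**Figure D5:**
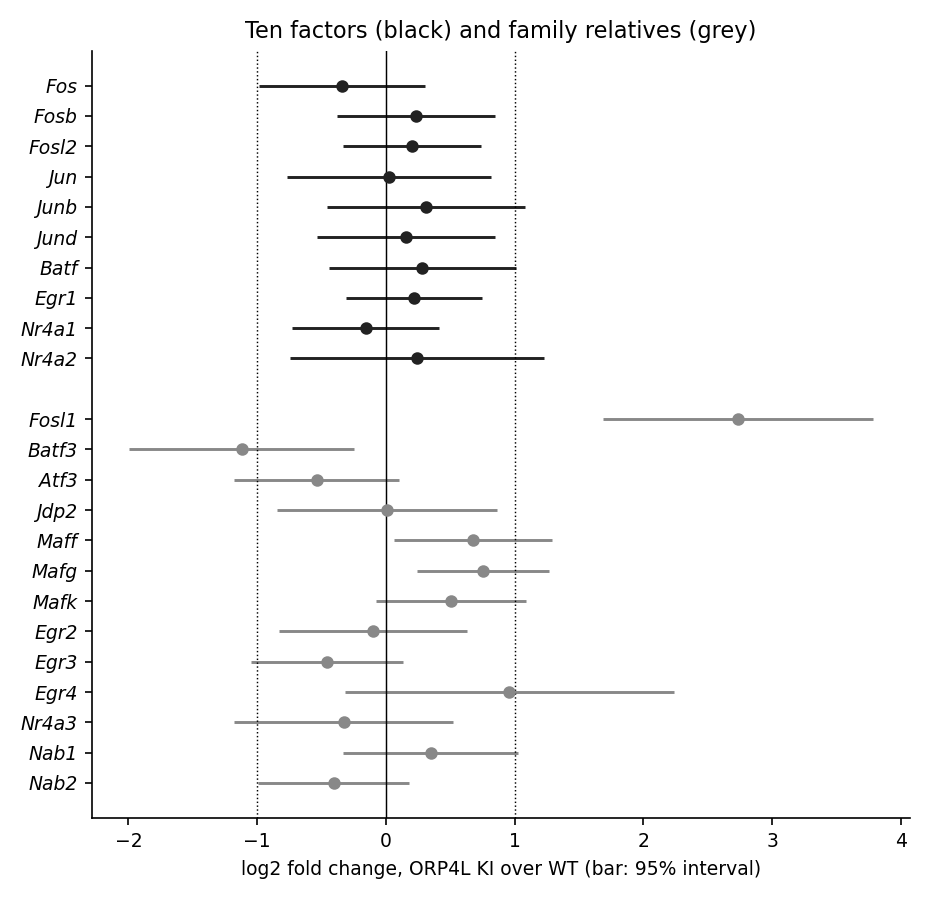
Log2 fold change of ORP4L KI over WT with its 95% interval for the 10 members and the 13 relatives tested, with dotted lines at 1 and -1. The members lay between -0.34 and 0.31, and their intervals are given as a description without a test. Fosl1 at 2.73 stood apart from the other genes plotted.

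Genes upstream of the members were tested as a list of 22 kinases and factors, such as the ERK and JNK kinases, Srf and its partners, Creb1 and NFAT. At the unadjusted rule edgeR called 0 of them, beside 2.38% of all genes called higher and 2.3% lower. The median log2 fold change was -0.04. An unadjusted p under 0.05 was found for 1 gene (4.55%), beside 13.7% of all genes. That gene was Mapk9, which encodes the kinase JNK2, at 48.7 to 51.3 CPM in WT and 32.6 to 39.8 CPM in ORP4L KI with a log2 fold change of -0.47 (edgeR adjusted p = 0.254). Mapk3 (ERK1) had a log2 fold change of 0.85 with a wide spread (69.8 to 121 CPM in WT, 81.7 to 312 CPM in ORP4L KI), and Crem one of -0.46, and neither passed. Of Mapk3 the highest library was ORP4L KI replicate 1, in which most members were low.

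Of 28 other immediate-early and feedback genes, 1 (3.57%) was called higher and 0 lower, beside 2.38% and 2.3% of all genes. The median was 0.16. The gene called was Ier3, a stress-induced regulator of ERK signalling and cell death, at 33.4, 80.7 and 39.1 CPM in WT and 158, 98.4, 87.1 and 106 CPM in ORP4L KI. Its log2 fold change was 1.14 (SE 0.35, edgeR adjusted p = 0.169), and the unadjusted call was lost with total counts (0.99) and without WT replicate 1 (0.91), WT replicate 3 (0.98), ORP4L KI replicate 1 (0.93) or ORP4L KI replicate 4 (1.17). In contrast to the members, Ier3 was highest in ORP4L KI replicate 1. Csrnp1 and Dusp6, an ERK phosphatase, had log2 fold changes of 0.46 and 0.33 and did not pass.

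Among 20 targets of T-cell activation edgeR called 0 in either direction, beside 2.38% of all genes called higher and 2.3% lower. An unadjusted p under 0.05 was found for 1 (5.0%), beside 13.7% of all genes, and the median was -0.04. Il2ra, the high-affinity IL-2 receptor chain, had a log2 fold change of -0.73 (edgeR adjusted p = 0.287), Ifng one of 0.69 and Ctla4 one of 0.65. Il2ra and Ifng were lowest in ORP4L KI replicate 1, and Ctla4 in WT replicate 2.

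The 12 heat-shock genes, which encode chaperones, summed to 12570, 12110 and 10850 CPM in WT and 7229, 13150, 18810 and 17860 CPM in ORP4L KI. This is the same arrangement as for Junb, with ORP4L KI replicate 1 below and replicates 2, 3 and 4 above every WT library. Of the 12 genes edgeR called 0, beside 2.38% of all genes called higher and 2.3% lower. An unadjusted p under 0.05 was found for 1 (8.33%), beside 13.7% of all genes. In 11 of the 12 the log2 fold change was positive, and the median was 0.28. Bag3, a cochaperone, had a log2 fold change of 0.84 (edgeR adjusted p = 0.304), Hsp90aa1 one of 0.51 and Dnaja1 one of 0.50. Without ORP4L KI replicate 1, Bag3 passed the unadjusted rule at 1.08. Whether the heat-shock genes and the members share a source of variation was not tested. Over all 5 lists, 95 of 96 genes were tested, 2 (2.11%) were called higher, beside 2.38% of all genes, and 0 lower. An unadjusted p under 0.05 was found for 8 (8.42%), beside 13.7% of all genes.

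The genes with the profile most like that of Junb were sought among 9352 genes with a mean log2 CPM of at least 3. The measure was the root-mean-square difference of log2 CPM over the 7 libraries, after each gene had been centred on its mean. The nearest were Rps27 (0.09), H2-Q6 (0.13), Dnajb1 (0.14), Siah2 (0.15) and Hspa8 (0.16), compared with a median of 0.55 over all genes. Dnajb1 and Hspa8 are heat-shock genes, and Rps27 (17.1 to 23.5 CPM in WT) and H2-Q6 have near-identical relatives that can share reads, so their counts are uncertain. The nearest member to Junb was Jund at rank 305 with 0.32, and Fos had rank 2851 with 0.48.

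The profiles nearest to Fos were those of Lif (0.15), Mapk11 (0.16), P2ry12 (0.17), Bbs9 (0.18) and Ppbp (0.18), beside a median of 0.51 over all genes. Among the members Nr4a1 was the nearest, at rank 22 with 0.23, followed by Jun at rank 96 with 0.27. Nr4a2 was far from Fos, at rank 8252 with 0.73. The 7 libraries share their scaling and include ORP4L KI replicate 1, so these distances describe these libraries and carry no test.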

How the data were processed

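RNA sequencing data of T-cells from 3 WT and 4 ORP4L KI mice were used, grouped by the genotype that the labels give. The authors trimmed adapters, mapped the reads with FANSe3 to a mouse mRNA reference, and deposited read counts per gene, with splice variants merged and without normalization. The authors also deposited RPKM values, computed with a gene length, which were used here to compare levels between genes and for no test. The handling of reads that fit several genes is not given in the sources used here.

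The members and all gene lists were chosen with earlier results of these data known. Counts were analysed with edgeR 4.0.16 in R 4.3.3 by the quasi-likelihood test over all 7 libraries, with TMM scaling and filterByExpr (minimum count 10, minimum total 15), which left 13462 of 25033 genes. Adjusted p-values are Benjamini-Hochberg values over all genes tested. CPM values were scaled by TMM. Profiles were compared as log2 of CPM plus 0.5. Libraries held 12918187 to 19665679 counts, and no library pair agreed within sampling noise. Each p-value sets the difference between the groups against the spread between mice within them.

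Named were all members, the relatives tested, the 3 genes with the smallest unadjusted p of each other list, the 5 nearest profiles to Junb and to Fos, Osbp2, and marker sums. S100a8, S100a9, Csf3r, Csf1r, Ly6c2, Cd3d, Cd3e, Cd4 and Cd8a were added after their values were seen. Alternatives were other scalings and filters, thinned counts, DESeq2 1.42.0, the replicate number as a block and each library left out. Tables and plots were made with Python 3.11.15, pandas 2.3.3 and Matplotlib 3.10.9.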

Additional observations from a re-analysis of the deposited data

Results flagged for a closer look

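For 36 genes, namely the members, the genes named from the lists and Osbp2, the library farthest from the others was compared with the range of the 4 ORP4L KI libraries. Dixon's limit for 4 samples (0.829) was passed by 2 genes, and chance passes it in about 1 of 20. Egr3, an Egr relative induced by T-cell receptor signals, was 67.6 CPM in ORP4L KI replicate 3 and 35.2 to 39.0 CPM in the other ORP4L KI libraries. Replicate 3 was also the ORP4L KI library with the highest Egr1 level. Nab1, a corepressor of Egr factors, was 199 CPM in ORP4L KI replicate 2 and 99.4 to 111 CPM in the others, with 75.5 to 129 CPM in WT.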

How the results depend on the processing

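The members had 0 calls under all 16 alternatives, which called 328 to 855 of the 12055 to 18501 genes tested by the unadjusted rule. Without ORP4L KI replicate 1, edgeR gave an unadjusted p under 0.05 to 1 member, beside 1815 of 13338 genes. Nothing about the members is read from these counts, because the same comparison chose them. The median log2 difference of the members, 0.21, lay between 0.05 and 0.29 with 1 library left out and between 0.03 and 0.22 under the others. With total counts alone the all-gene median was -0.13. Over all genes, the 630 unadjusted calls became 328 to 805 with 1 library left out, the lowest without WT replicate 2. The 3 calls at an adjusted p under 0.05 became 44 with upper-quartile scaling, 113 with total counts, 176 without a filter, 0 with at least 10 counts in every library (1549 genes at an unadjusted p under 0.05), 784 by DESeq2's Wald test and 0 to 342 with 1 library left out, the highest without ORP4L KI replicate 2. With 0 such calls, edgeR left 1260 to 1759 genes at an unadjusted p under 0.05 in the leave-one-out fits. Deviations of same-numbered WT and ORP4L KI mice had an r of -0.61 to 0.18 over 3 pairs. For mice with different numbers it was -0.45 to 0.57 over 9 pairs. So few pairs cannot show whether the numbers stand for a pairing. With the replicate block Junb was 0.05, Jun -0.31, Jund -0.06 and Nr4a2 0.01. With the replicate block over replicates 1 to 3 the adjusted calls were 48, the unadjusted calls 466 and the pathway calls 1. The same replicates without the block gave 0 (1421 at an unadjusted p under 0.05), 442 and 1. The 2 pathway calls were 1 to 3 with 1 library left out, and 1 without WT replicate 1 or without ORP4L KI replicate 4. Jdp2 (0.01) became -0.048 with upper-quartile scaling, -0.14 with total counts, -0.049 with the replicate block, -0.15 without it, -0.0051 with thinned counts and -0.25 to 0.57 with 1 library left out. Egr2 (-0.10) became 0.024 on replicates 1 to 3 without the block and -0.39 to 0.090 with 1 library left out. Batf3 passed the unadjusted rule with total counts (-1.28) and by DESeq2 (-1.11), and Ier3 did not with the replicate block (1.22) or on the same replicates without it (1.17). The cause of these changes was not tested.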
